A study of Mus musculus with 13 samples.

Results

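The 10 genes described here encode the D-type cyclins Ccnd1, Ccnd2 and Ccnd3, the kinases Cdk4 and Cdk6, and the kinase inhibitors Cdkn1a (p21), Cdkn1b (p27), Cdkn1c (p57), Cdkn2c (p18) and Cdkn2d (p19). They were taken by name from 21887 protein-coding genes with mm10 bounds, with no threshold on a measured value, though earlier results of these data were known when they were named. Every called ChIP-seq region inside or within 50 kb of their bounds was collected from 12 replicate lists and 6 pooled lists. Regions of different lists that overlapped were joined into sites, which gave 116 sites, 65 at the 5 cyclin and kinase genes and 51 at the 5 inhibitor genes.

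D-type cyclins are made in response to growth factors and bind CDK4 or CDK6, and the active kinase phosphorylates the retinoblastoma protein, which releases E2F factors and lets the cell pass from G1 into S phase. The CIP/KIP inhibitors (Cdkn1a, Cdkn1b, Cdkn1c) bind cyclin and kinase complexes, chiefly those of CDK2, while the INK4 inhibitors (Cdkn2c, Cdkn2d) bind CDK4 and CDK6 and keep the cyclin away. Cytokine-dependent blood cells that lose their cytokine stop in G1, and STAT5, activated through JAK kinases by the IL3 receptor, is a known activator of D-cyclin genes. LSD1 removes methyl groups from histone H3 as part of CoREST complexes, and HDAC3 removes acetyl groups from histones as part of NCoR and SMRT complexes.

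The cells were Ba/F3, a pro-B line of the mouse whose growth depends on interleukin 3 (IL3). All cells were kept in 1 ng/mL IL3 and then deprived of it for 6 h. The group without IL3 was taken at that point, and the group with IL3 was given 10 ng/mL IL3 for a further 30 min, so that the control is deprived cells and not cells kept in IL3. No genotype other than that of the line is given. STAT5A, LSD1 and HDAC3 were each measured in 2 biological replicates per condition, 12 libraries in 6 groups, and each group also had a list called by the authors on its replicates pooled. The lists hold positions of bound DNA and no expression, so the labelled cell type could not be checked against its markers, and nothing here says whether a gene was transcribed.

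The lists differed widely in length, from 354 to 13574 regions for STAT5A, from 1007 to 15786 for LSD1 and from 265 to 1632 for HDAC3. The shortest list of STAT5A was replicate 1 without IL3, with 354 regions against 4513 in replicate 2, and the shortest of LSD1 was also replicate 1 without IL3, with 1007 against 15786. HDAC3 with IL3 replicate 2 held 265 regions and a single score of 76945.2, against at most 279.5 in replicate 1. The region numbers per condition are given with and without these 3 libraries. The other counts were not all repeated without them. The authors' score orders the regions of a list but its definition is not given, and read totals are not known. Low scores of each list were whole multiples of 1 step, and the weakest regions called held 4 to 6 steps, so that weaker binding was not detectable.

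The reference table held promoters for 7 of the 10 genes, 10 windows in all, and 4 of these windows overlapped regions of 2 or more replicate lists. These 4 are shown. In the Ccnd3 and Cdkn2d windows the 2 replicate lists, of STAT5A and of LSD1, had separate regions that did not overlap, so no region there was called in more than 1 replicate list. Each runs from 250 bases before to 50 bases after the start, 5′ to 3′ on the gene's strand, from RefSeq (GRCm38.p6), and capitals mark bases inside a region called in at least 1 replicate list. The windows are chr17:47504801-47505100 (+) for Ccnd3, chr10:127063285-127063584 (+) for Cdk4, chr17:29093519-29093818 (+) for the second start of Cdkn1a, inside the gene, and chr9:21291160-21291459 (-) for Cdkn2d.
Ccnd3: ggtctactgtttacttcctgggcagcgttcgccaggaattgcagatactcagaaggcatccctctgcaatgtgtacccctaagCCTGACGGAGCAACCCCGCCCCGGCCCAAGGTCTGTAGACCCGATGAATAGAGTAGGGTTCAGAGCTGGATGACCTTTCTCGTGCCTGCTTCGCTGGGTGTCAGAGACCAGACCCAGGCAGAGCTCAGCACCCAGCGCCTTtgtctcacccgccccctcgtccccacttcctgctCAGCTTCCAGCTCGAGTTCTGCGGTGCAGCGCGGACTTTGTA
Cdk4: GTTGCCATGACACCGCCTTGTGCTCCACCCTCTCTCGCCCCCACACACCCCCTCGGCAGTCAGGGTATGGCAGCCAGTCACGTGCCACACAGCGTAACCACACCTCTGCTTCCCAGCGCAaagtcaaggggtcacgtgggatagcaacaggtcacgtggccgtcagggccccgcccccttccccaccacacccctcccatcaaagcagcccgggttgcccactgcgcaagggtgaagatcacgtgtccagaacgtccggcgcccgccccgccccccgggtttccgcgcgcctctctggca
Cdkn1a: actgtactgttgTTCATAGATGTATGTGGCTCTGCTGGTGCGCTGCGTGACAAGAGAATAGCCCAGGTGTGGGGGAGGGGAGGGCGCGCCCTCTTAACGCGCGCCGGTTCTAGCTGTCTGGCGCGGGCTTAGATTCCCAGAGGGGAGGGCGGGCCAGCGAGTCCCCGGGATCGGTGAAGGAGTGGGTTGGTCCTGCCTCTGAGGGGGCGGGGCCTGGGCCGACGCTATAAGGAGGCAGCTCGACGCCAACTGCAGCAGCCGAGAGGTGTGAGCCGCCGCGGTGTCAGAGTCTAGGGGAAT
Cdkn2d: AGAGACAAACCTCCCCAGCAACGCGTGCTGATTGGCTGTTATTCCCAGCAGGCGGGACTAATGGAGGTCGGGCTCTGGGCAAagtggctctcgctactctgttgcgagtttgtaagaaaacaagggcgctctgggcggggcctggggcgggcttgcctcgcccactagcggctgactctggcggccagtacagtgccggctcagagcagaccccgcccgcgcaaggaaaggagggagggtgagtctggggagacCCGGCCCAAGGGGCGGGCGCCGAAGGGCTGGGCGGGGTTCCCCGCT

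In the Ccnd3 window 183 of 300 bases lay in a called region, from STAT5A without IL3 replicate 2 and LSD1 without IL3 replicate 2. In the Cdk4 window 120 bases did, all from LSD1, in replicate 2 without IL3 and in both replicates with IL3. In the Cdkn1a window 288 bases did, from 5 replicate lists of all 3 proteins. In the Cdkn2d window 128 bases did, from STAT5A and LSD1 without IL3 replicate 2. The STAT palindrome TTCNNNGAA, the same on both strands, was in 0 of the 10 windows, where 8.3% of 32841 promoters of this length hold it. The palindrome CACGTG, the core E-box and also the same on both strands, was searched after the data were seen and was in 3 of the 10 windows against 7.15% of all promoters. The Cdk4 window held 4 copies, at positions -171, -117, -97 and -10 from the start, and the first of them lies in the capitals. Windows of Cdk6 and Cdkn2c held 1 copy each, with no called region over either window.

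STAT5A regions at the 10 genes numbered 1 and 12 in the replicates without IL3 and 37 and 19 in those with IL3, or 6.5 ± 7.78 against 28.0 ± 12.7 (SD, n = 2 each). Both libraries with IL3 lay above both without. List lengths moved with these counts, and per 1000 regions of the list the counts were 2.84 and 2.66 without against 2.73 and 3.03 with IL3, where the groups overlap. Without replicate 1 of the deprived cells, the shortest list, the difference of 21.5 regions became 16. In the pooled lists 7 of the 10 genes had a STAT5A region without IL3, against 40.9% of all genes, and 10 of 10 with IL3, against 61.4%. Here and below, shares of all genes are not matched for window length or region number. With IL3 the median number of pooled STAT5A regions was 3.5 at the 10 genes and 1 over all genes.

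LSD1 regions numbered 4 and 40 without IL3 and 22 and 32 with IL3, or 22.0 ± 25.5 against 27.0 ± 7.07 (SD, n = 2 each), and the groups overlap. The difference of 5 regions had no stable direction, since it was -13.0 without the shortest list, replicate 1 without IL3. All 10 genes had a pooled LSD1 region both without IL3 (63% of all genes) and with IL3 (64.7%). HDAC3 regions numbered 8 and 3 without IL3 and 6 and 0 with IL3, and these groups overlap too. The 0 of replicate 2 with IL3 came from a list of 234 regions on assembled chromosomes and allows up to 12.8 per 1000 of that list. Without that library the difference of -2.5 regions became 0.5. A pooled HDAC3 region was found at 6 of the 10 genes without IL3 (24.4% of all genes) and at 5 with IL3 (10.8%).

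**Figure D1:**
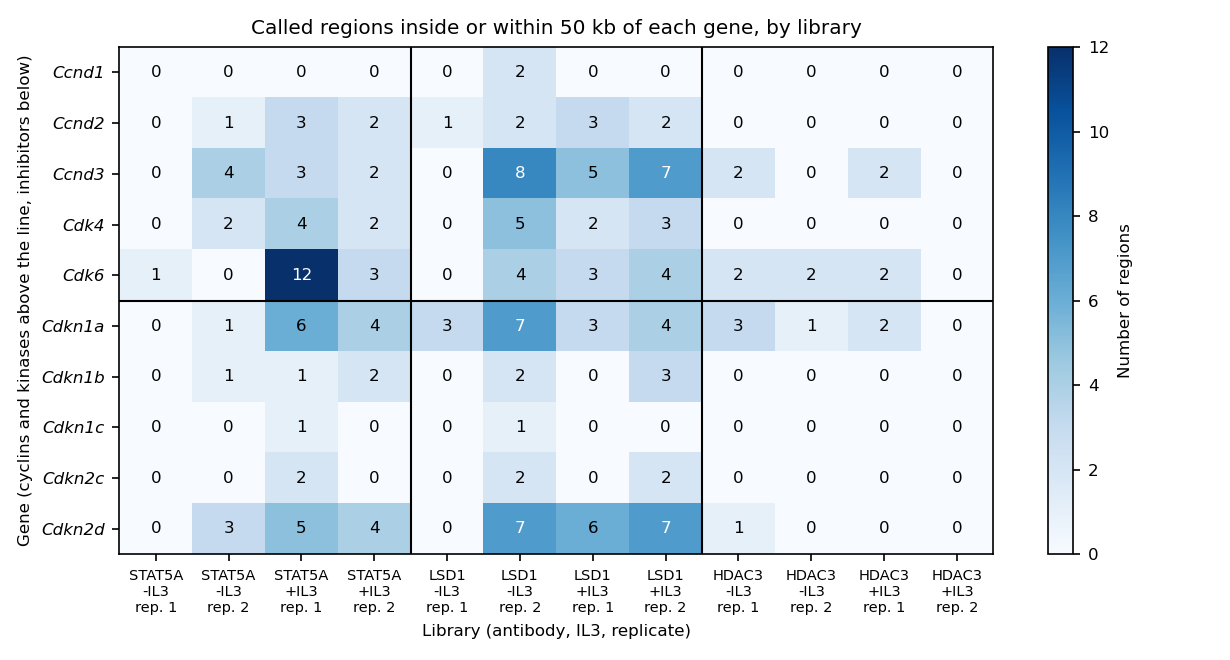
Number of called regions inside or within 50 kb of each gene (rows) in each of the 12 replicate libraries (columns, grouped by antibody, -IL3 for without and +IL3 for with), with the cyclin and kinase genes above the horizontal line. The highest count is 12, at Cdk6 for STAT5A with IL3 replicate 1, and the HDAC3 columns are 0 for 6 of the 10 genes.

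For single genes the number of STAT5A regions was higher in both replicates with IL3 than in either without at 4 of the 10 genes, Ccnd2, Cdk6, Cdkn1a and Cdkn2d, against 18% of all genes. Each of these gave p = 0.33 in the two-sided exact permutation test, the smallest that 2 against 2 libraries allow, and 1 after Benjamini-Hochberg adjustment over 30 tests (10 genes, 3 proteins), so none passed. No gene had fewer STAT5A regions in both replicates with IL3 (0.0183% of all genes). For LSD1 and HDAC3 no gene of the 10 had its groups apart in either direction. The shares of all genes were 2.25% with more and 0.064% with fewer LSD1 regions, and 0.0548% with more and 1.62% with fewer HDAC3 regions.

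Among the cyclins, the window of Ccnd2 held the clearest sites of both STAT5A and LSD1, at separate places. Ccnd2 encodes cyclin D2, a D cyclin prominent in lymphoid cells, and lies at chr6:127125162-127152188, in a direction not given in the table used. STAT5A regions numbered 0 and 1 without IL3 and 3 and 2 with IL3. The highest in the pooled list with IL3 lay inside the gene, 310 bp from its upper bound, at chr6:127151773-127151983. It ranked 949 of 13574 in replicate 1 (score 197.6) and 539 of 6288 in replicate 2 (score 70.0), was in neither replicate without IL3, and overlapped an LSD1 region in replicate 1 with IL3. A second STAT5A site, 10.7 kb above the upper bound, ranked 6410 of 13574 and 414 of 6288 with IL3. It was in neither replicate without IL3, but the pooled list without IL3 held it at rank 3213 of 5051 (score 14.7). LSD1 was called there in replicate 2 of each condition.

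The strongest LSD1 site of all 10 genes lay 15.3 kb below the lower bound of Ccnd2, at chr6:127109657-127109864. It lay 208 bp from an end of Tigar, which encodes a fructose bisphosphatase and is the nearer gene. Here and below, an end of a gene is either of its bounds with no strand read, so it may be the start. LSD1 ranked 12 of 1007 and 5 of 15786 there without IL3 and 15 of 6479 and 17 of 11570 with IL3. All 4 LSD1 libraries thus had it within their highest-scoring 1.19% of regions. Its scores were 226.8 and 350.4 without IL3 and 126.3 and 191.9 with IL3. In score steps it held 15 and 115 without IL3 and 51 and 72 with IL3. A step differs in size between lists, at 15.12 and 3.05 without IL3, so step numbers do not compare binding between libraries. STAT5A was called there without IL3 in replicate 2, at rank 284 of 4513, and in no replicate with IL3, and HDAC3 was called in none.

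Ccnd3, the cyclin D3 gene that pre-B-cell proliferation requires, lies at chr17:47505051-47599689 on the plus strand and had 20 sites, 11 of them inside the gene. STAT5A regions numbered 0 and 4 without IL3 and 3 and 2 with IL3, which overlap, while LSD1 had 0 and 8 without and 5 and 7 with IL3. LSD1 and HDAC3 were called in both conditions at a site 16.7 kb inside the gene from its upstream bound. LSD1 ranked 1475 of 15786 there in replicate 2 without IL3 and 4432 of 6479 and 4628 of 11570 with IL3, and HDAC3 ranked 301 of 1632 and 384 of 683 in replicate 1 without and with IL3. STAT5A was called there without IL3 alone, in replicate 2. A site 4.04 kb from the downstream bound was likewise called for LSD1 and HDAC3 in both conditions and for STAT5A in replicate 1 with IL3. The highest STAT5A region of Ccnd3 with IL3 lay 1.28 kb from the downstream bound and 926 bp from an end of Bysl. It ranked 1717 of 13574 in replicate 1 and was not called in replicate 2.

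The other Ccnd3 sites in 2 or more replicate lists lay 6.27 kb inside the gene and, outside it, 20.3 kb upstream near Taf8 and 29.7 and 30.3 kb downstream near Usp49. At the last of these both LSD1 replicates with IL3 had a region. Ccnd1, the cyclin D1 gene at chr7:144929931-144939831, had 3 sites, all outside the gene and nearer to Fgf15 or LTO1. STAT5A and HDAC3 were called there in 0 of 4 replicate lists each, and LSD1 in 1, with 2 regions in replicate 2 without IL3. The single pooled STAT5A region with IL3 ranked 12819 of 15546.

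Cdk6 had the most STAT5A regions of the 10 genes and also the longest window, 290 kb. It encodes a kinase that D cyclins activate and spans chr5:3341004-3531008 on the plus strand. STAT5A regions numbered 1 and 0 without IL3 and 12 and 3 with IL3. The highest, at chr5:3477980-3478245 and 52.9 kb from the downstream bound, ranked 25 of 13574 in replicate 1 with IL3 (score 660.1) but 2842 of 6288 in replicate 2 (score 35.0), 177 and 7 score steps. The next, at chr5:3460992-3461278 and 69.9 kb from that bound, ranked 205 of 13574 and 5790 of 6288. Both were in neither replicate without IL3. In replicate 2 the first was at the middle of its list by rank (upper 45.2%, the median of that list) and the second near the floor (upper 92.1%, 5 steps).

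A further site inside Cdk6, 33.3 kb from the downstream bound, was called in 7 of the 12 replicate lists. STAT5A ranked 152 of 354 in replicate 1 without IL3 and 1717 of 13574 and 641 of 6288 with IL3. HDAC3 ranked 936 of 1632 and 240 of 535 without IL3 and was in neither replicate with IL3, while LSD1 was called in replicate 2 of each condition. A site 39.5 kb upstream was called for LSD1 in 3 lists, for STAT5A in replicate 1 with IL3 and for HDAC3 in replicate 1 with IL3. Sites 29.1 and 36.5 kb from the downstream bound made up the 6 found in 2 or more replicate lists. Of the 24 Cdk6 sites 21 had an end of Cdk6 as the nearest gene end, and 19 lay inside it.

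Cdk4, the other D-cyclin kinase, is a short gene at chr10:127063535-127067288 among close neighbours, and 1 of its 12 sites had an end of Cdk4 as the nearest. That site covers the promoter window shown above and was an LSD1 site, at rank 2974 of 15786 in replicate 2 without IL3 and 4432 of 6479 and 612 of 11570 with IL3. STAT5A and HDAC3 were called there in pooled lists without IL3 alone. STAT5A regions of the Cdk4 window numbered 0 and 2 without IL3 and 4 and 2 with IL3, and the groups meet. The 1 called in both stimulated and in neither deprived replicate lay 47.9 kb downstream, inside Os9. The highest in the pooled list lay in Tspan31, 2.57 kb downstream, at rank 1844 of 13574 in replicate 1 alone. LSD1 sites in 3 and 2 of 4 replicate lists lay 8.91 and 7.8 kb downstream in Agap2, and a site in Eef1akmt3 and Mettl1, 21.4 kb upstream, was in 2 replicate lists.

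Cdkn1a had the highest STAT5A region of all 10 genes and sites of all 3 proteins. It encodes p21, which arrests the cycle after p53 activation, and lies at chr17:29090979-29100722 on the plus strand. STAT5A regions numbered 0 and 1 without IL3 and 6 and 4 with IL3, so the groups do not overlap. The leading site lay 10.7 kb downstream, at chr17:29111381-29111760, in no gene and 2558 bp from an end of Rab44, the nearest gene end. STAT5A ranked 6 of 13574 (score 794.3) and 39 of 6288 (score 215.1) with IL3, was in neither replicate without, and stood at rank 5 of 15546 in the pooled list. Its 213 and 43 score steps in the replicates sum to the 256 of the pooled list.

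LSD1 and HDAC3 were called at that site in both conditions. LSD1 ranked 1180 of 15786 in replicate 2 without IL3 and 587 of 6479 and 1944 of 11570 with IL3. HDAC3 ranked 207 of 1632 and 430 of 535 without IL3 and 104 of 683 in replicate 1 with IL3. The site was thus in 8 of the 12 replicate lists, more than any other of the 116. A neighbouring site lay 13.3 kb downstream, 12 bp from an end of Rab44. It had an LSD1 region in both deprived replicates and in no replicate with IL3, and an HDAC3 region in replicate 1 without IL3.

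Upstream of Cdkn1a, a site at 11.8 kb was called for LSD1 in all 4 replicate lists, at ranks 383 of 1007 and 1064 of 15786 without IL3 and 1706 of 6479 and 2369 of 11570 with IL3. HDAC3 was called there in replicate 1 without IL3 and STAT5A in replicate 1 with IL3. At the second start of the gene, whose window is shown above, LSD1 was called in both replicates without IL3 and in replicate 2 with IL3. STAT5A was called at that start in replicate 2 and HDAC3 in replicate 1 with IL3. The first start had a STAT5A region 236 bp upstream in replicate 1 with IL3 alone. LSD1 sites in 2 replicate lists lay 27.3 and 9.98 kb upstream, and a site 4.63 kb inside the gene was called for STAT5A in 1 replicate of each condition and for LSD1 in replicate 2 without IL3.

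**Figure D2:**
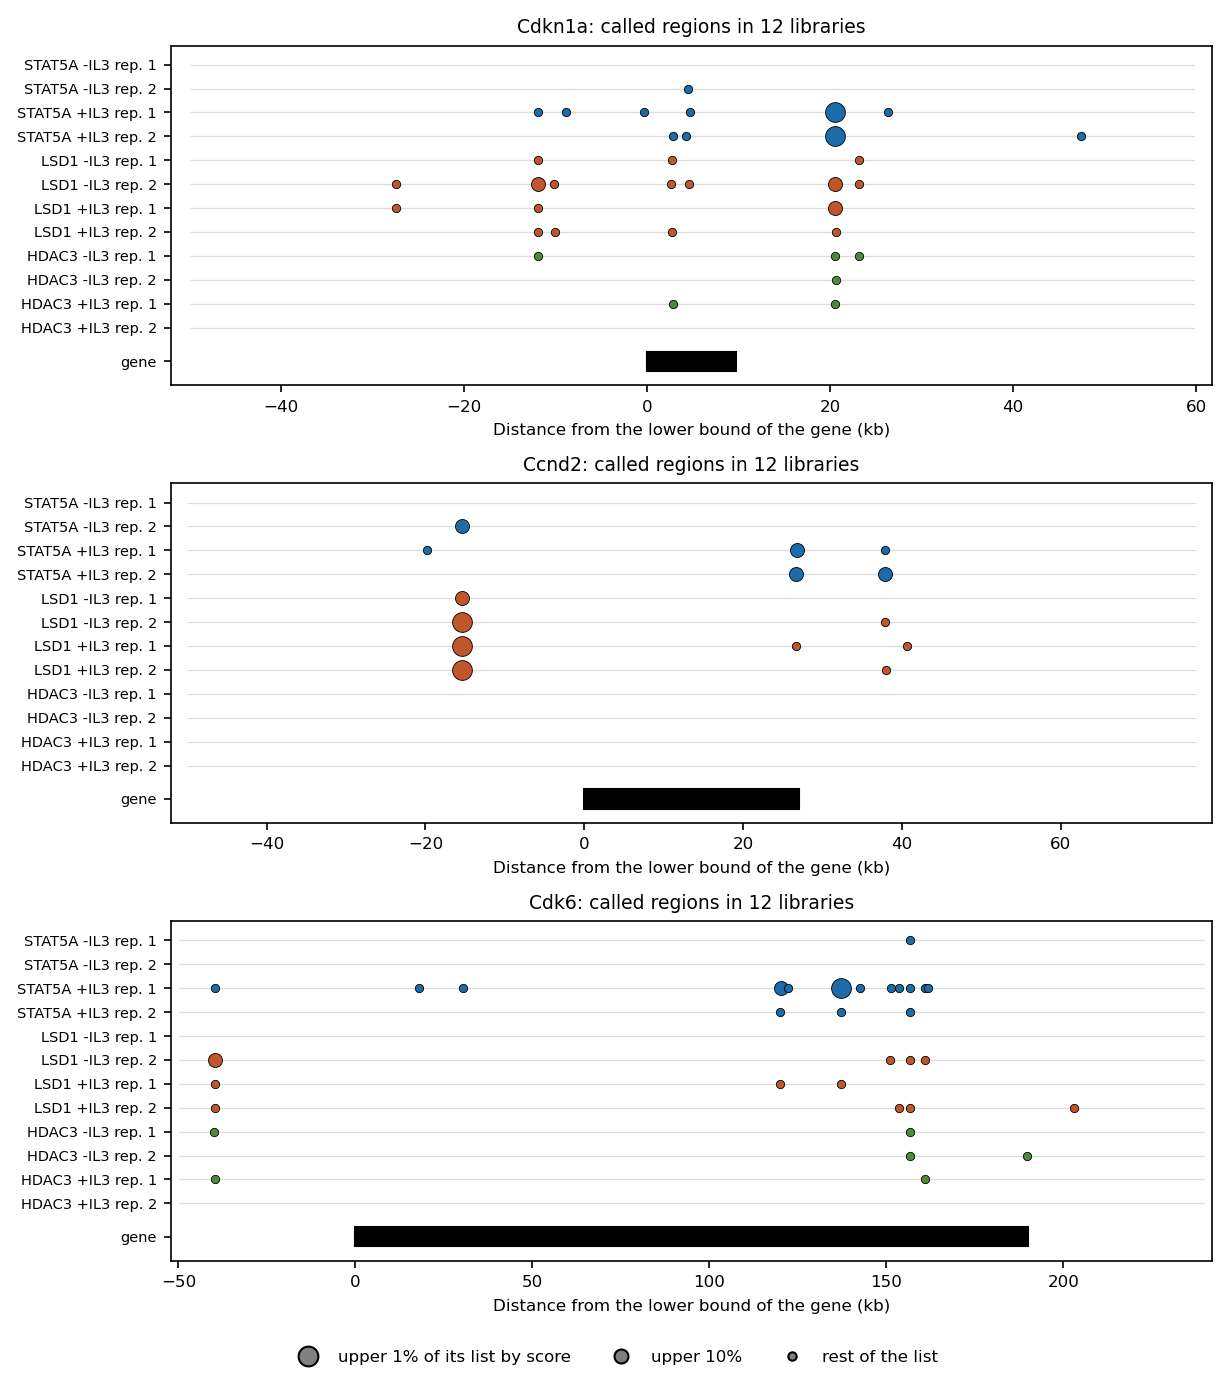
Called regions (points, at the region centre) in the 12 replicate libraries (rows) around Cdkn1a, Ccnd2 and Cdk6, against the distance in kb from the lower bound of the gene (black bar), with larger points for the upper 10% and the upper 1% of the library's list by score. STAT5A points at Cdkn1a line up above 20 kb in both libraries with IL3 and in neither without, and the 4 LSD1 libraries line up at Ccnd2 15.3 kb below the gene.

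Cdkn1b and Cdkn1c had few regions, none of them high in its list. Cdkn1b encodes p27, whose level rises in many cells when mitogens are withdrawn, and lies at chr6:134920401-134925525. STAT5A regions numbered 0 and 1 without and 1 and 2 with IL3, LSD1 0 and 2 without and 0 and 3 with IL3, and HDAC3 0 in all 4. Of its 8 sites, 2 were in 2 replicate lists, 1.29 and 2.8 kb downstream, and the best rank of any in a pooled list was the upper 27.5%. Cdkn1c, at chr7:143458339-143461059, had 3 sites, all over 34 kb above it and nearer to Slc22a18 or Phlda2. STAT5A was called there in replicate 1 with IL3 and LSD1 in replicate 2 without IL3, with 1 region each.

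The INK4 genes differed from each other. Cdkn2c, at chr4:109660876-109666756 on the minus strand, had 8 sites, and none was in 2 or more replicate lists. STAT5A regions numbered 0 and 0 without and 2 and 0 with IL3, and LSD1 0 and 2 in each condition. Cdkn2d, at chr9:21288459-21291421 on the minus strand, had 17 sites, 9 of them in 2 or more replicate lists. STAT5A regions numbered 0 and 3 without and 5 and 4 with IL3, LSD1 0 and 7 without and 6 and 7 with IL3, and HDAC3 1 in replicate 1 without IL3 alone.

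The 17 sites of Cdkn2d were spread over a gene-dense window, and 3 had an end of Cdkn2d as the nearest. At its promoter, 62 bp from the upstream bound, STAT5A ranked 168 of 4513 in replicate 2 without IL3 and was in no other replicate list. With IL3 no STAT5A region was called at that site in either replicate, but the pooled LSD1 list with IL3 held a region there, at rank 6755 of 17092. A site 129 bp downstream was called for LSD1 in replicate 2 without IL3 and in both with IL3, for STAT5A in replicate 2 with IL3 and for HDAC3 in replicate 1 without IL3. The other 8 sites in 2 or more replicate lists lay near Keap1 (49 and 49.4 kb downstream), Atg4d (23.1 kb), Kri1 (0.505 and 1.36 kb), Ap1m2 (22 kb upstream) and Slc44a2 (30.2 and 41.3 kb upstream). Of the regions just inside the limit, a STAT5A region of replicate 2 with IL3 lay 49.61 kb from Cdkn2d at rank 2842 of 6288, and just outside it an LSD1 region of replicate 2 with IL3 lay 52.0 kb from Ccnd2 at rank 9243 of 11570.

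Gained regions were counted as those called in both stimulated and in neither deprived library, and lost regions the other way round. Of 60 STAT5A regions at the 10 genes, joined over the 4 replicate lists, 6 were gained (10%), against 8.72% of all 20764. They lay at 4 of the 10 genes, against 15.6% of all genes, with 2 each at Ccnd2 and Cdk6 and 1 each at Cdk4 and Cdkn1a, the sites given above. That is 3 of 5 cyclin and kinase genes and 1 of 5 inhibitor genes. No STAT5A region was lost (0.0482% of all).

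For LSD1, 2 of 61 regions were gained, against 3.36% of all, 30.3 kb downstream of Ccnd3 and 30.2 kb upstream of Cdkn2d. The LSD1 region lost was the 1 at 13.3 kb downstream of Cdkn1a (0.319% of all). For HDAC3, 0 of 13 were gained (0.0389% of all) and 1 was lost, at the site 33.3 kb from the downstream bound of Cdk6 (3.58% of all). At that site STAT5A was called in both stimulated libraries and in replicate 1 without IL3.

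Overlap of the proteins was read from the pooled lists, with 1 bp or more counted as shared. With IL3, 14 of the 44 STAT5A regions at the 10 genes overlapped LSD1, or 31.8% (95% Wilson interval 20% to 46.6%), against 33.4% of all STAT5A regions. HDAC3 overlapped 4 of the 44, or 9.09% (3.59% to 21.2%) against 4.56% of all. By HDAC3 replicate with IL3 these were 5 of 44 in replicate 1 (11.4%, 4.95% to 24%, against 3.09% of all) and 0 of 44 in replicate 2 (0% to 8.03%, against 0.212%). Replicate 1 had 6 HDAC3 regions at the 10 genes, at 3 of them. Its interval above the share of all regions is therefore not read as a difference. Without IL3, 11 of 16 STAT5A regions overlapped LSD1 (68.8%, 44.4% to 85.8%) and 4 of 16 HDAC3 (25%, 10.2% to 49.5%), against 52.5% and 17.1% of all. Of the HDAC3 regions, 8 of 11 without IL3 overlapped LSD1 (72.7%, 43.4% to 90.3%) and 7 of 9 with IL3 (77.8%, 45.3% to 93.7%), against 69.6% and 69% of all. In each of these pooled comparisons the interval of the 10 genes held the share of all regions. Counted over LSD1 regions, the same overlaps with IL3 were 7 of the 53 at the 10 genes (13.2%, 6.55% to 24.8%), against 4.88% of all. This share also depends on the number of HDAC3 regions at the 10 genes, 7.45 per 1000 of that list against 3.1 for LSD1. The overlap is thus not a result apart from the 7 of 9. By HDAC3 replicate with IL3 this overlap was 5 of 53 against 3.03% of all in replicate 1, and 0 of 53 against 0.269% in replicate 2. By class, the pooled overlap with IL3 was 6 of 28 at cyclins and kinases (21.4%, 10.2% to 39.5%) and 1 of 25 at inhibitors (4%, 0.71% to 19.5%). Without IL3 the order was the other way, with 3 of 27 at cyclins and kinases (11.1%, 3.85% to 28.1%) and 5 of 25 at inhibitors (20%, 8.86% to 39.1%). The intervals cover counting error only and take regions as independent, though several lie at the same gene. No test was made over the genes.

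Of the 44 STAT5A regions with IL3, 4 overlapped a pooled STAT5A region without IL3 (9.09%, against 10.9% of all). Of the 116 sites, 28 were called for STAT5A alone (24.1%, against 30.9% of 41218 sites over the genome), 43 for LSD1 alone (37.1% against 39%) and 4 for HDAC3 alone (3.45% against 2.17%). All 3 proteins were called in replicate lists at 9 sites (7.76% against 3.29%), 3 each at Cdkn1a and Cdk6, 2 at Ccnd3 and 1 at Cdkn2d. These sites join both conditions, so the proteins need not share a condition. At those 11.8 kb upstream of Cdkn1a and 129 bp downstream of Cdkn2d, HDAC3 was called without IL3 alone and STAT5A with IL3 alone. At that 29.1 kb from the downstream bound of Cdk6, LSD1 was called without IL3 alone and STAT5A and HDAC3 with IL3 alone. No site was in all 6 pooled lists, where 0.514% of all sites were.

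Cyclins and kinases were set against inhibitors per 100 kb of window, because the windows add up to 825 kb for the first class and 526 kb for the second. STAT5A with IL3 had 26 and 18 pooled regions, 3.15 against 3.42 per 100 kb, a difference of -0.27. By replicate these were 2.67 against 2.85 and 1.09 against 1.90. The difference was -0.99 without Cdk6, -1.86 within 10 kb and 0.01 within 100 kb. Within each class the genes differed more than the classes did. STAT5A regions per 100 kb ran from 0.91 at Ccnd1 to 4.48 at Cdk6 among cyclins and kinases, and from 0.97 at Cdkn1c to 5.83 at Cdkn2d among inhibitors.

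LSD1 had 3.27 regions per 100 kb at cyclins and kinases against 4.75 at inhibitors without IL3, and 3.39 against 4.75 with IL3. The inhibitors were higher in all 4 LSD1 replicate lists, with cyclins and kinases minus inhibitors at -0.45 and -1.06 without and -0.13 and -1.10 with IL3, though without Cdk6 the third of these turned to 0.16. The inhibitors were not alike. In the pooled LSD1 lists Cdkn1a and Cdkn2d had 9.11 and 7.77 per 100 kb without IL3 and 6.38 and 9.71 with IL3. Cdkn1b, Cdkn1c and Cdkn2c lay between 0.97 and 2.85 in both conditions. Cdk4 and Ccnd3 lay above those, at 6.75 and 5.65 without IL3 and 3.86 and 5.14 with IL3. HDAC3 had 0.73 against 0.95 without IL3 and 0.85 against 0.38 with IL3, from 6, 5, 7 and 2 regions. Of 5 genes against 5 chosen genes no test of the classes was made.

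**Figure D3:**
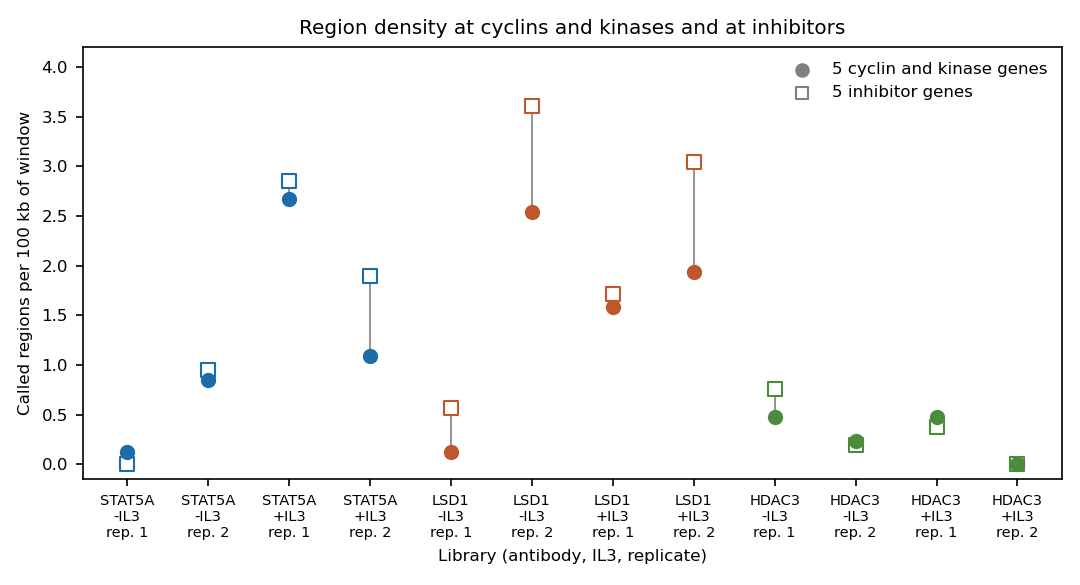
Called regions per 100 kb of window in the 12 replicate libraries (x axis) for the 5 cyclin and kinase genes (filled circles) and the 5 inhibitor genes (open squares), joined by a line within a library. The squares lie above the circles in all 4 LSD1 libraries (differences of -1.10 to -0.13, circles minus squares). They do so too in the STAT5A libraries other than replicate 1 without IL3, where 1 region puts the circle higher (0.12 against 0.00). The HDAC3 libraries show both orders.

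By score, the best STAT5A region with IL3 was in the upper 0.0322% of the pooled list at Cdkn1a, 0.283% at Cdk6 and 5.67% at Ccnd2, and at the other 7 genes it lay between 11.5% and 82.5%. Without IL3 the best were at Cdkn2d (upper 3.5%) and Ccnd2 (8.71%). The best LSD1 region in both conditions was that 15.3 kb below Ccnd2 and nearer to Tigar, in the upper 0.0355% and 0.111%. The best STAT5A region of Cdkn1a with IL3 also lay outside the gene, nearer to Rab44. The best HDAC3 region was at Cdkn1a without IL3, in the upper 7.4%, and with IL3 it was at Cdkn1a and Ccnd3, with equal scores, in the upper 10.8%. Over all 44 STAT5A regions with IL3 the median position was 37.1%, against 47% for all regions of that list. By replicate it was 39% against 47.2% in replicate 1 and 45.2% for both in replicate 2, so the difference is that of 1 library. The classes were at 34.1% (cyclins and kinases) and 42.2% (inhibitors) in the pooled list, at 27.2% and 52.4% in replicate 1, and both at 45.2% in replicate 2.

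**Figure D4:**
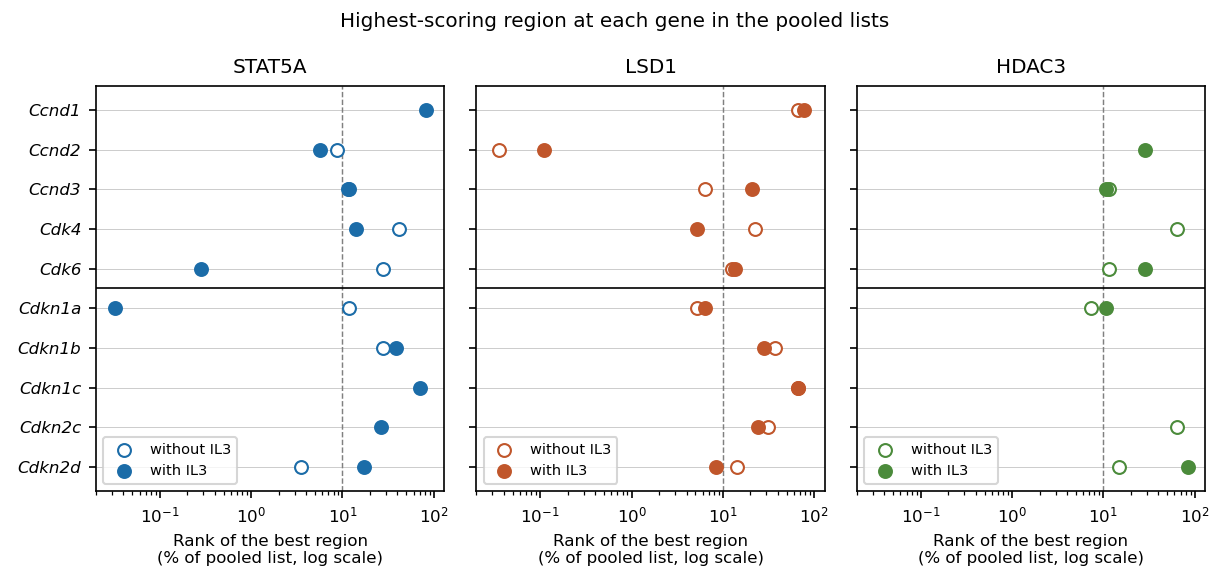
Rank of the highest-scoring region at each gene as a percent of the pooled list (log scale, lower is higher in the list) for STAT5A, LSD1 and HDAC3, without IL3 (open) and with IL3 (filled). The dashed line marks 10%, and a gene with no point had no region. Cdkn1a (0.0322%) and Cdk6 (0.283%) for STAT5A with IL3 and Ccnd2 for LSD1 (0.0355% and 0.111%) stand far to the left. Those of Cdkn1a and Ccnd2 lie outside the gene, nearer to Rab44 and Tigar.

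Of 32 other genes of the G1 to S passage, 28 had a pooled STAT5A region with IL3 within 50 kb (87.5%, against 61.4% of all genes). Without IL3, 24 had such a region (75% against 40.9%), and 9 had a gained STAT5A region (28.1% against 15.6%). LSD1 regions were near 29 without IL3 (90.6% against 63%) and 32 with IL3 (100% against 64.7%). HDAC3 regions were near 13 without IL3 (40.6% against 24.4%) and 3 with IL3 (9.38% against 10.8%). The highest STAT5A regions with IL3 lay near Cdc6, a replication licensing factor, at rank 65 of 15546 and 24.1 kb from the gene, and near E2f7, a repressor of the E2F family, at rank 506. Mcm6, a subunit of the replicative helicase, followed at rank 1055, then Rb1 at 1401, E2f6 at 1536 and Ambra1, which targets D cyclins for degradation, at 1851. The regions near Cdc6, E2f7 and Rb1 were in both stimulated and in neither deprived replicate. Of the 32 genes, 9 matched the presence or absence of regions at Ccnd2 in 11 of the 12 replicate lists, and as they tie, none is singled out.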

How the data were processed

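The data are 12 ChIP-seq libraries of Ba/F3 cells for STAT5A, LSD1 or HDAC3, and an input sample is not used here. Per the submitters' processing notes, Trimmomatic 0.30, Bowtie2 2.1.0, Picard 1.92, HOMER 4.8 and mm10 were used. Peak-calling settings, thresholds and read depth: not given in the sources used here. Each region carries a score that the authors deposited, whose definition is not given, so scores were used to rank regions within 1 list, equal scores sharing the better rank. If 1 score step is 1 read, its inverse gives relative depths of 1 to 8.84 among the 12 libraries.

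Tables were made in Python 3.11.15 with pandas 2.3.3, tests with scipy 1.17.1 and numpy 2.4.6, and figures with matplotlib 3.10.9. Regions off assembled chromosomes were left out except in list lengths and ranks. Regions were tied to a gene when inside or within 50 kb of its bounds in the reference table, which gives strand only through the promoter table (7 of the 10 genes) and no exons or introns. Gained and lost regions came from the 4 replicate lists of a protein, joined where they overlapped by 1 bp. For single genes an exact permutation test (two-sided) was run with Benjamini-Hochberg adjustment over 30 tests. Its p-values compare the observed split of the libraries with the other possible splits and do not measure the spread between replicates. Wilson 95% intervals and the limit of 3 counts cover counting error only. The counting, the gained and lost classes and the overlap were tested on simulated data, where 200 of 200 genes, 300 of 300 gained, 50 of 50 lost regions and 100 of 100 overlaps were recovered.

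Groups were taken from the labels, which number the replicates but give no shared day or culture, so the numbers only name the samples. The genes, the 32 other G1 to S genes, the rules and the comparisons were chosen with earlier results of these data known. All 10 genes are named, with the sites in 2 or more replicate lists or in the upper 10% of a pooled list, the nearest gene where it is another, and up to 6 other G1 to S genes by STAT5A rank. Ccnd1, Cdkn1c and further single regions are described although they are weak, because all genes of the set are. Alternatives were windows of 10 and 100 kb, the higher-scoring part of each list, numbers per 1000 regions, centres within 500 bp, pooled lists, a replicate block, each replicate left out, and, added after seeing the data, the density without Cdk6 and the motif CACGTG.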

Additional observations from a re-analysis of the deposited data

How the results depend on the processing

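Of 58 alternative values, 41 were counted as the same and 17 as moved, by rules that differed between results. The LSD1 and HDAC3 differences counted as moved were those that lost or changed their sign, whatever the size of the change. Overlap shares counted as moved lay outside the Wilson interval of the main value. For counts of gained regions the limit was a change of 1.5 times. Per 1000 regions of the list, the difference with minus without IL3 was 0.123 for STAT5A and -0.175 for LSD1. Leaving out 1 replicate gave 12.5 to 30.5 STAT5A regions (21.5 with all), -13 to 23 LSD1 regions (5 with all) and -5.5 to 0.5 HDAC3 regions (-2.5 with all). The replicate block, by number, gave 21.5, 5 and -2.5, from 36 and 7, 18 and -8, and -2 and -3 within numbers 1 and 2. The 6 gained STAT5A regions became 3 within 10 kb, 40 from pooled lists and 6 to 35 with 1 replicate left out, since fewer lists must then hold the region. The share of STAT5A regions overlapping LSD1 was 47.7% with centres within 500 bp and 22.7% to 52.6% with 1 replicate left out, and the share overlapping HDAC3 was 0% to 11.4%. The density difference between cyclins and kinases and inhibitors was -1.86 within 10 kb, 0.01 within 100 kb, -0.99 without Cdk6, and -0.81 to -0.18 with 1 replicate left out. Except where fewer lists show it, the cause was not tested. The floor of 4 to 6 score steps and lists of 265 to 15786 regions limit what a missing region means.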
